A study of Mus musculus with 16 samples.

Results

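In mouse embryos at E10.5, 10 genes of the dermomyotome and the skeletal muscle lineage were followed by their Ensembl identifiers, out of the 54838 gene identifiers in the count tables: Meox1, Meox2, Dmrt2, Lbx1, Myf5, Myf6, Myod1, Myog, Cdh15 and Atp2a1. All 10 passed the filter on low counts, which kept 21284 genes over all 16 libraries. The libraries came from the Head, the part above the third branchial arches, or the Tail, the part behind the forelimbs. In each region the genotypes were wild type (WT), a Fuz knockout (Fuz KO), a Gpr161 knockout (Gpr161 KO) and Fuz;Gpr161 DKO (DKO). Each of the 8 groups had n = 2 libraries of poly-A RNA from untreated embryos, and no group carried a further allele or agent that the labels name. The sources used here give neither the alleles, nor the strain, nor how many embryos a library holds. The p-values therefore reflect how far these libraries differ from each other. In Gpr161 KO, library 1 was male and library 2 female by Xist in both regions, so these came from different embryos. In the other groups the difference between libraries may be technical.

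Somites are the paired blocks of mesoderm along the trunk and tail, and their dorsal sheet, the dermomyotome, gives rise to skeletal muscle and dermis. Cells at its edges switch on the myogenic regulatory factors Myf5, Myf6 (Mrf4) and Myod1, which commit them to muscle, and then Myog, which drives differentiation into fibres that express contractile and calcium-handling genes. Cells from limb-level somites migrate into the limb under Lbx1. Most of the head lies in front of the somites, and its muscles form largely from branchial arch mesoderm. Sonic hedgehog from the notochord and floor plate patterns the somite, Hedgehog signalling runs through the primary cilium, where the receptor Gpr161 holds it back, and cilia need the planar cell polarity effector Fuz to form.

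Promoter sequence was available for 6 of the 10 genes (Myf5, Myog, Cdh15, Dmrt2, Meox2 and Atp2a1), from RefSeq on the assembly GRCm38.p6, as 250 bases before to 50 after each annotated start. The 4 shown belong to Myog and to the 3 genes that fell in the Tail of the Gpr161 KO. Each is written 5′ to 3′ on the strand of its gene, and capitals mark CANNTG, the E-box that myogenic basic helix-loop-helix factors bind, which reads the same on both strands.
Myog, chr1:134289754-134290053 (+ strand): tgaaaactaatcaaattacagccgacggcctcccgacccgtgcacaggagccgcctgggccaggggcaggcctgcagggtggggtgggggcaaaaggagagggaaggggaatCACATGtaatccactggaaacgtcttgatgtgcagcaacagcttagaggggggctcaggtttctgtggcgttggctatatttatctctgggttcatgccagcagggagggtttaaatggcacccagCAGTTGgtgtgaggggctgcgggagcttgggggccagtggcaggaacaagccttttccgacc
Cdh15, chr8:122848124-122848423 (+ strand): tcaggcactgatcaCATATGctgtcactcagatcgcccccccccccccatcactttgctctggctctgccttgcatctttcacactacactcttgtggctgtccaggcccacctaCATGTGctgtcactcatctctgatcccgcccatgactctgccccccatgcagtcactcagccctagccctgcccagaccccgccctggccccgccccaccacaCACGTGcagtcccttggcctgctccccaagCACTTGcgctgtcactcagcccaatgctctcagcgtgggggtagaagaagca
Atp2a1, chr7:126463024-126463323 (- strand): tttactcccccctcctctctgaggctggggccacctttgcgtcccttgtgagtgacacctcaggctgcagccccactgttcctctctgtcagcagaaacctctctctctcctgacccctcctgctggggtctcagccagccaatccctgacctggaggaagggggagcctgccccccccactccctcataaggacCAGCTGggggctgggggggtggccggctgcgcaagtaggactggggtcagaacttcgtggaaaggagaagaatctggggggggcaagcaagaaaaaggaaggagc
Dmrt2, chr19:25672161-25672460 (+ strand): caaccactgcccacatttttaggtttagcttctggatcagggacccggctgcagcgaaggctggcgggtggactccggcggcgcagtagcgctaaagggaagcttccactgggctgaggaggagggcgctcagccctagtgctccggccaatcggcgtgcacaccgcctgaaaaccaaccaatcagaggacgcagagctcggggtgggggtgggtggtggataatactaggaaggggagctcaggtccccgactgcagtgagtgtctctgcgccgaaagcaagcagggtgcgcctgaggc
Myog had 2 matches, which began 138 and 12 bases before the start, and Cdh15 had 4, at 236, 135, 32 and 2 bases before it. Atp2a1 had 1 match, at 55 bases before the start, and it reads CAGCTG. Meox2 had 1 match, while the windows of Dmrt2 and Myf5 held 0. CANNTG occurred in 72.3% of 32851 promoters of the same length and CAGCTG, a subset of it, in 16.3%, so a match is a description of the letters and nothing more.

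The libraries held 39062489 to 53680317 counts (median 41951619.5). The targeted genes matched the labels: Fuz was at 0.808 to 1.89 CPM, that is counts scaled by library total and TMM factor, in the 8 libraries of Fuz KO and DKO and at 4.95 to 9.22 in the other 8. Gpr161 was at 2.12 to 5.44 CPM in the 8 libraries of Gpr161 KO and DKO and at 24.3 to 55.0 in the others. Msgn1, a gene of the presomitic mesoderm, was at 1.64 to 9.67 CPM in the Tail libraries and at 0 to 0.0469 in the Head. By Xist, 6 libraries were female, the 4 WT libraries and Gpr161 KO 2 of both regions, and 10 were male. Sex therefore cannot be told apart from genotype where Fuz KO or DKO is set against WT. Only Gpr161 KO held both sexes, so a term for sex is set by the difference between its libraries 1 and 2. With that term, Gpr161 KO against WT rests in effect on Gpr161 KO 2. The 17 hypoxia and glycolysis genes lay above the WT mean of their region, by a median log2 difference of 1.85 to 2.67 in library 1 of Fuz KO and DKO of both regions, and this difference was at most 1.37 in the other 12 libraries.

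All 10 genes had a lower mean in the Head than in the Tail of WT embryos. In the test, 7 of the 10 were lower in the Head than in the Tail at an adjusted p under 0.05 (edgeR's quasi-likelihood test, Benjamini-Hochberg over all genes tested), where 1.74% of all genes were called lower. All 10 had both Head libraries below both Tail libraries, as did 27.9% of all genes. The largest mean difference among the called genes was that of Meox1, 1.14 ± 0.29 CPM (SD, n = 2) in Head against 103.6 ± 4.15 in Tail (log2 -6.50, SE 0.31, edgeR adjusted p = 2.01e-07), followed by Dmrt2 (log2 -5.69, SE 0.48, adjusted p = 2.13e-05) and Meox2 (log2 -4.88, SE 0.52, adjusted p = 0.000177). Myf6, Myf5, Atp2a1 and Cdh15 were lower by log2 -4.84, -3.36, -3.25 and -3.13 (edgeR adjusted p = 0.00996 to 0.0166). Myog (log2 -6.62, SE 1.63, edgeR adjusted p = 0.0583), Myod1 (-3.65, SE 1.01, 0.0713) and Lbx1 (-2.22, SE 1.05, 0.395) did not pass. Without Head WT 1 the count was 3 of 10 and without Head WT 2 or Tail WT 2 it was 4, and Meox1, Meox2 and Dmrt2 were called each time. With Head and Tail libraries of the same genotype and number treated as pairs, 9 of the 10 passed, beside 2007 of 21284 genes. Myog (log2 -6.70, edgeR adjusted p = 9.48e-08), Myod1 (-3.70, 0.0105) and Lbx1 (-2.21, 0.000969) were then called, and Myf5 was not (-3.32, 0.067).

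Within the Tail WT libraries, the level per kilobase of exon (CPM per kb, with exons from GENCODE M21) placed Meox1 first at 46.5 ± 1.86 (SD, n = 2). Dmrt2 at 17.8 ± 2.58 and Myog at 17.7 ± 7.65 came next and could not be ordered, since their libraries overlapped. Meox2 followed at 9.45 ± 1.89 and Myf5 at 5.76 ± 2.02. Cdh15, Lbx1, Myf6 and Atp2a1 lay between 3.87 and 1.57 CPM per kb, and Myod1 was lowest of the 10 at 0.937 ± 0.34. From Myf5 downward every pair of neighbours had overlapping libraries except Myf6 and Atp2a1.

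**Figure D1:**
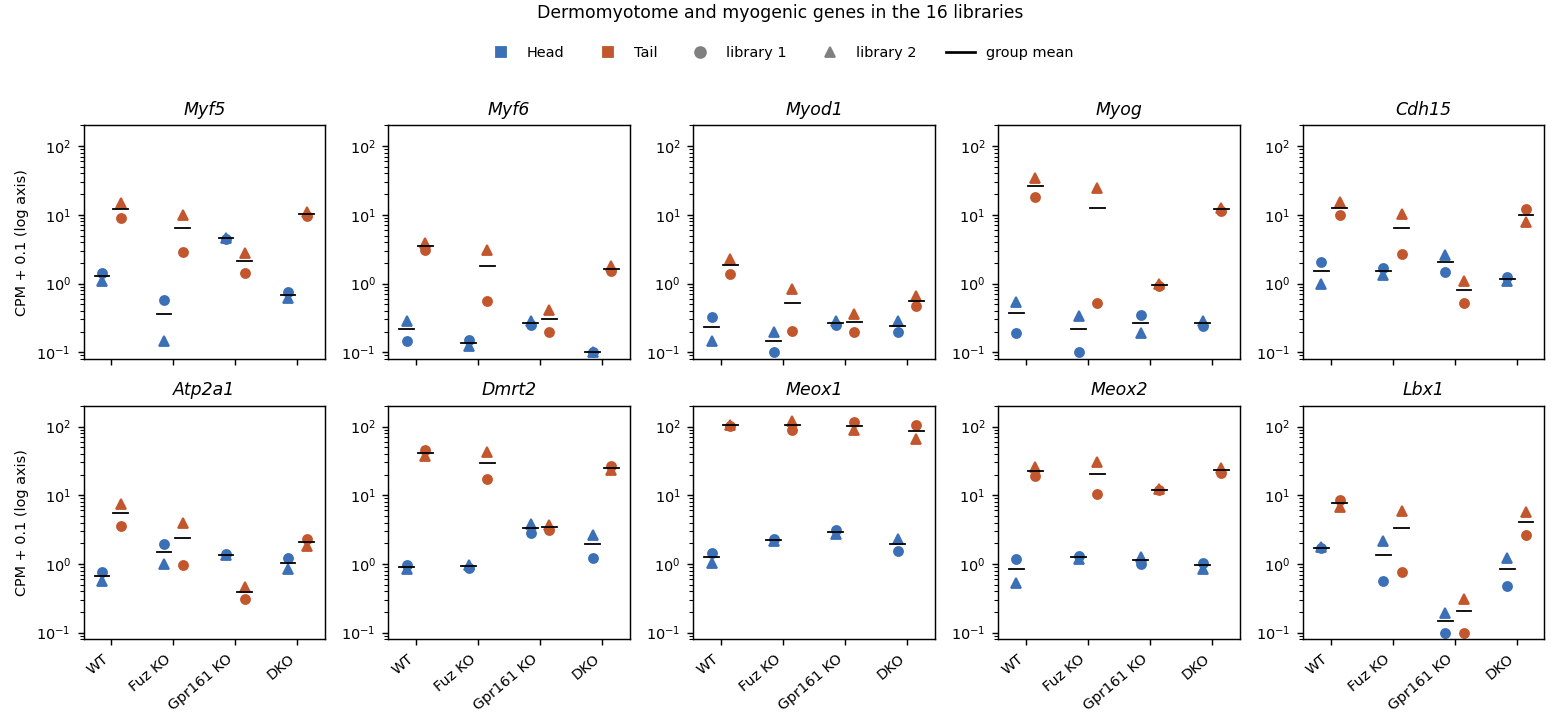
CPM plus 0.1 on a log axis for each of the 10 genes, by genotype, with Head in blue, Tail in orange, circles for library 1, triangles for library 2 and a black bar for the group mean. The Tail Gpr161 KO libraries lie below both Tail WT libraries for every gene but Meox1, which stays between 66.2 and 121.5 CPM in all 8 Tail libraries.

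In the Tail of the Gpr161 KO, 3 of the 10 genes fell against Tail WT, Dmrt2 12.6-fold, Cdh15 17.9-fold and Atp2a1 19.0-fold in the means, and 0 rose, where 0.226% of all genes fell. At an unadjusted p under 0.05, 8 of the 10 were lower, all but Meox1 and Meox2, beside 3.97% of all genes. In 9 both Gpr161 KO libraries lay below both WT libraries, as in 22% of all genes, and the median log2 change of the 10 was -3.86 beside 0.00053 over all genes. Over the 4 Tail groups, WT had the highest mean for 8 genes, all but Meox1 and Meox2, and Gpr161 KO the lowest for 9, all but Meox1. In RNA from whole tissue, fewer cells of a type and less RNA per cell cannot be told apart.

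The 2 Meox genes were the pair not under that unadjusted threshold. Meox1, a homeobox gene needed with Meox2 for somite patterning, was at 100.7 and 106.5 CPM in the WT libraries, 90.2 and 121.5 in those of Fuz KO, 115.2 and 89.3 in those of Gpr161 KO and 105.5 and 66.2 in those of DKO. These 4 groups overlapped, and the change in Gpr161 KO was log2 -0.02 (95% interval -0.52 to 0.48, edgeR adjusted p = 1). Meox2 was at 19.1 and 25.5 CPM in the WT libraries, 10.2 and 30.8 in those of Fuz KO, 11.7 and 12.2 in those of Gpr161 KO and 21.1 and 25.2 in those of DKO. Both Gpr161 KO libraries were below both WT libraries, with log2 -0.90 (SE 0.43, edgeR adjusted p = 0.747), which did not pass. In the Head both genes were low, Meox1 at 0.939 to 3.05 CPM and Meox2 at 0.422 to 1.22.

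Dmrt2, a DM-domain factor of the dermomyotome that acts upstream of Myf5, had the smallest adjusted p of the 10 in this comparison. It was at 45.9 and 37.3 CPM in the WT libraries, 17.0 and 41.9 in those of Fuz KO, 3.01 and 3.62 in those of Gpr161 KO and 26.7 and 23.5 in those of DKO. The Gpr161 KO libraries stood apart below the other 6, and the fall against WT was log2 -3.65 (SE 0.43, edgeR adjusted p = 0.00325). With each region fitted alone or sex as a term, Dmrt2 was the 1 gene of the 10 still called. Without either Gpr161 KO library it did not pass (adjusted p up to 0.0805), and its log2 change ran from -3.79 to -3.47 over all alternatives.

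Lbx1, a homeobox gene of migrating limb muscle precursors that dorsal interneurons of the neural tube also use, was at or near 0 in the Gpr161 KO libraries of both regions. Its Tail levels were 8.38 and 6.70 CPM in the WT libraries, 0.671 and 5.78 in those of Fuz KO, 0 and 0.207 in those of Gpr161 KO and 2.56 and 5.52 in those of DKO. Its Head levels were 1.59 and 1.64 CPM in the WT libraries, 0.467 and 2.02 in those of Fuz KO, 0 and 0.0931 in those of Gpr161 KO and 0.377 and 1.14 in those of DKO. The Gpr161 KO libraries were below all others of their region. Neither difference from WT passed the edgeR test (Tail adjusted p = 0.129, Head 0.14), and both passed without the Fuz KO 1 and DKO 1 libraries (0.0214 and 0.0219) and by DESeq2 (0.00163 and 0.0193), which over all genes called 320 in the Tail and 968 in the Head, where edgeR called 65 and 429. A count of 0 in Tail Gpr161 KO 1 allows up to 0.0711 CPM, which covers counting error only.

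Limb bud mesenchyme is the target of these migrating cells. Its 10 listed genes summed to 645.2 to 909.7 CPM in Tail WT and 673.4 to 769 in Tail Gpr161 KO. Between these groups 0 rose or fell by edgeR, with 0 higher and 2 lower at an unadjusted p under 0.05, beside 3.97% of all genes lower. The same genes summed to 575.2 to 587.6 CPM in Head WT, so the sums cannot show whether limb bud was present. By gene, 4 of the 10 were lower in Head WT than in Tail WT and 0 higher by edgeR, where 1.74% of all genes were lower. The median log2 difference of the list was -1.03. Beside Lbx1, the 9 dorsal interneuron genes of the neural tube summed to 29.0 to 35.9 CPM in the Tail Gpr161 KO libraries against 77.0 to 85.6 in Tail WT, with Ptf1a, which specifies such neurons, at 0 in both KO libraries. In the Head they summed to 83.0 to 92.1 CPM in Gpr161 KO and 95.4 to 105.1 in WT, with Ptf1a at 0 in both KO libraries there too. In that Head comparison 0 of the 9 rose and 0 fell by edgeR. At an unadjusted p under 0.05, 4 were lower, beside 4.72% of all genes, and 0 higher, and the median log2 change of the 9 was -0.68. In the Tail comparison 0 of the 9 rose and 0 fell by edgeR. At an unadjusted p under 0.05, 5 were lower, beside 3.97% of all genes, and the median log2 change of the 9 was -1.99. The part of dorsal interneurons in the Lbx1 values was not tested.

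The 3 factors that commit cells to muscle were low together in the Tail Gpr161 KO, although 0 of the 3 passed by edgeR. Myf5, the first of them to be expressed in the somite, was at 9.02 and 15.0 CPM in the WT libraries, 2.76 and 9.85 in those of Fuz KO, 1.33 and 2.69 in those of Gpr161 KO and 9.44 and 10.9 in those of DKO. Myf6 was at 2.94 and 3.84 CPM in the WT libraries, 0.464 and 2.94 in those of Fuz KO, 0.0948 and 0.31 in those of Gpr161 KO and 1.41 and 1.68 in those of DKO. Myod1, the latest of them, was at 1.29 and 2.2 CPM in the WT libraries, 0.103 and 0.741 in those of Fuz KO, 0.0948 and 0.258 in those of Gpr161 KO and 0.369 and 0.548 in those of DKO. For Myf5 and Myf6 the Gpr161 KO libraries were below all 6 others, and for Myod1 they overlapped Fuz KO. The log2 changes against WT were -2.58 (SE 0.66) for Myf5, -4.06 (SE 0.85) for Myf6 and -3.29 (SE 0.99) for Myod1, with edgeR adjusted p of 0.209, 0.0965 and 0.33. By DESeq2 Myf5 (adjusted p = 0.00244) and Myf6 (0.00105) passed.

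Myog, the factor of terminal differentiation, had the widest gap between the 2 Tail Fuz KO libraries. It was at 18.4 and 34.5 CPM in the WT libraries, 0.413 and 24.8 in those of Fuz KO, 0.806 and 0.878 in those of Gpr161 KO and 11.2 and 12.6 in those of DKO. Both Gpr161 KO libraries and Fuz KO 1 were below 1 CPM while the other 5 were above 11. The change in Gpr161 KO was 31.4-fold in the means (log2 -4.97, 95% interval -8.24 to -1.70, edgeR adjusted p = 0.361), and it passed without the Fuz KO 1 and DKO 1 libraries (adjusted p = 0.0168) and by DESeq2 (adjusted p = 0.0494).

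Of the muscle products, Cdh15 encodes M-cadherin, the adhesion protein of myoblasts and satellite cells. It was at 9.91 and 15.2 CPM in the WT libraries, 2.58 and 10.2 in those of Fuz KO, 0.427 and 0.981 in those of Gpr161 KO and 12.1 and 7.66 in those of DKO. The Gpr161 KO libraries were below all 6 others, and the gene fell by 4.16 on the log2 scale (SE 0.67, edgeR adjusted p = 0.0218). Atp2a1, the calcium pump SERCA1 of fast fibres, was at 3.47 and 7.46 CPM in the WT libraries, 0.851 and 3.78 in those of Fuz KO, 0.213 and 0.362 in those of Gpr161 KO and 2.24 and 1.72 in those of DKO. It too was lowest in both Gpr161 KO libraries and fell by 4.24 on the log2 scale (SE 0.71, edgeR adjusted p = 0.0231). Without Tail WT 2, without either Gpr161 KO library, with the Tail alone or with sex as a term, neither Cdh15 nor Atp2a1 passed (adjusted p up to 0.368).

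**Figure D2:**
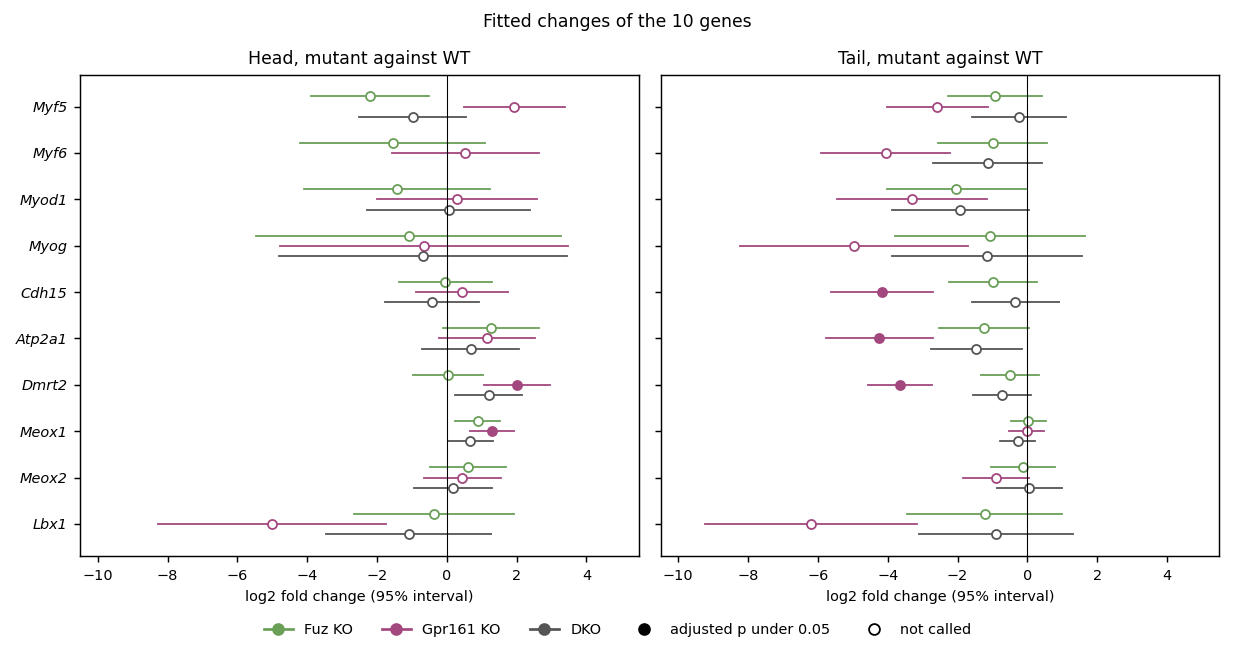
Fitted log2 fold change of each gene with its 95% interval in the Head (left) and the Tail (right), for Fuz KO (green), Gpr161 KO (purple) and DKO (grey) against WT, filled where the adjusted p is under 0.05. Myf6 in Head DKO is not drawn because both libraries were at 0. In the Tail, Cdh15, Atp2a1 and Dmrt2 are filled for Gpr161 KO and no gene is filled for Fuz KO or DKO.

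Genes acting above and beside the 10 in the same lineage were taken as a list of 18 somite and myogenic regulators. In Tail Gpr161 KO 0 of these rose and 4 fell, with a median log2 change of -0.70. Pax3, the factor of the dermomyotome and its migrating cells that is also made in the dorsal neural tube, was at 7.87 and 8.24 CPM against 55.5 and 54.7 in WT (log2 -2.77, SE 0.17, edgeR adjusted p = 4.32e-06). Pax7, its paralogue in the same tissues, was at 0.0948 and 0.0516 CPM against 8.02 and 11.4 (log2 -6.98, SE 0.50, edgeR adjusted p = 2.26e-05). Both genes also fell by edgeR in Head Gpr161 KO against Head WT. The part of the neural tube in the Pax3 and Pax7 values was not tested. Eya2, a transcriptional coactivator, fell by 1.73 on the log2 scale (edgeR adjusted p = 0.0218). In Tail DKO 0 of the 18 passed against WT, with a median of -0.48. At an unadjusted p under 0.05, 7 were lower, beside 4.56% of all genes. Against Tail Gpr161 KO, Pax3 (log2 2.19, edgeR adjusted p = 5.35e-05) and Pax7 (log2 6.20, edgeR adjusted p = 5.47e-05) rose in Tail DKO, 2 of 18, a comparison named after its values were seen.

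The 33 skeletal muscle structural and synaptic genes, of which 31 were tested, had a median log2 change of -3.08 in Tail Gpr161 KO. By edgeR's adjusted p 0 rose and 0 fell, while 21 were lower and 0 higher at an unadjusted p under 0.05, beside 3.97% of all genes lower. Cav3, Ckm, Musk, Myh8, Mymx and Tnnc2 were at 0 in both Gpr161 KO libraries, and Ckm and Tnnc2 were at most 0.183 CPM in WT too. Of these, Mymx encodes the fusion peptide myomixer and Musk the kinase of the neuromuscular junction. Mymx was at 0.622 and 1.42 CPM in Tail WT. In Tail DKO the list's median was -0.85 against WT, with 0 of 31 genes called and 0 under an unadjusted p of 0.05. Among the Hedgehog target genes 6 of 8 rose in Tail Gpr161 KO against WT and 0 fell, with Gli1, the transcription factor that reports pathway activity, at 113.9 and 130.2 CPM against 38.2 and 45.9 (log2 1.54, edgeR adjusted p = 0.00325). Foxa2, a floor plate factor (log2 2.92, edgeR adjusted p = 0.00511), and the receptor gene Ptch1 (log2 1.89, 0.0129) rose as well.

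**Figure D3:**
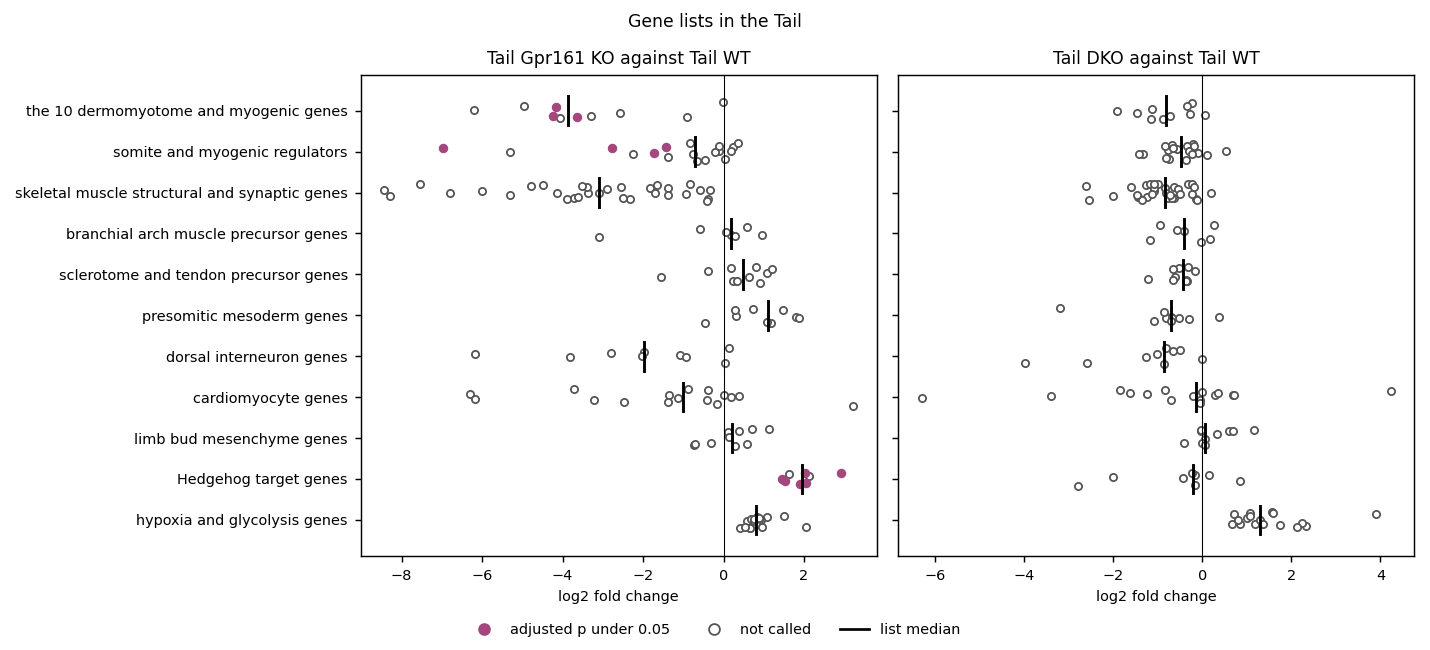
Log2 fold change of each tested gene of the 10 and of the 10 lists in Tail Gpr161 KO (left) and Tail DKO (right) against Tail WT, filled where the adjusted p is under 0.05, with a black bar at each list's median. The 10 genes and the skeletal muscle list have medians of -3.86 and -3.08 in Gpr161 KO and of -0.81 and -0.85 in DKO.

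When Fuz was lost together with Gpr161, 9 of the 10 genes lay above their Gpr161 KO level. Against Tail Gpr161 KO, Dmrt2 rose 7.58-fold (log2 2.92, SE 0.41, edgeR adjusted p = 0.00812) and Cdh15 14.0-fold (log2 3.81, SE 0.67, edgeR adjusted p = 0.0287) in Tail DKO, 2 of the 10 where 0.15% of all genes rose. At an unadjusted p under 0.05, 8 of the 10 were higher, beside 5.19% of all genes. All but Meox1 had both DKO libraries above both Gpr161 KO libraries, as did 24.5% of all genes. Lbx1 (log2 5.29, SE 1.36, edgeR adjusted p = 0.123), Atp2a1 (2.78, SE 0.68, 0.0955) and Myf5 (2.34, SE 0.66, 0.147) did not pass, and without any 1 of the 4 libraries neither did Dmrt2 nor Cdh15 (adjusted p up to 0.315). The 10 presomitic mesoderm genes, which mark the tissue that somites form from, lay the other way between these groups. Of these, 0 passed the adjusted test, and 8 were lower in DKO at an unadjusted p under 0.05, beside 7.01% of all genes. The median log2 difference of the list was -1.89. Against WT that median was 1.11 in Gpr161 KO and -0.70 in DKO. The part of this tissue in the values of the 10 genes was not tested.

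Against Tail WT, 0 of the 10 passed in Tail DKO, by edgeR or by DESeq2, where 0.0423% of all genes did by edgeR. Atp2a1 was the 1 gene under an unadjusted p of 0.05 (log2 -1.46, 95% interval -2.76 to -0.17), beside 7.19% of all genes. For 6 genes both DKO libraries lay below both WT libraries, Myf6, Myod1, Myog, Dmrt2, Atp2a1 and Lbx1, as for 20.8% of all genes. In DKO Dmrt2 stood at 60.3% of the WT mean, Myog at 44.9%, Atp2a1 at 36.3% and Myod1 at 26.3%. Myf5 at 84.8% and Cdh15 at 78.7% of the WT mean had libraries that overlapped WT, with 95% intervals of -1.57 to 1.10 and -1.59 to 0.90 on the log2 scale.

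Additivity was also tested, that is whether the log2 change of the DKO equals both single mutants' changes added up. In the Tail, 8 of the 10 genes lay above that sum at an unadjusted p under 0.05, all but Meox1 and Meox2, beside 3.29% of all genes. None passed the adjusted test, where 0.0423% of all genes did. Dmrt2 was closest, 3.42 above the sum on the log2 scale (SE 0.56, edgeR adjusted p = 0.0746), then Cdh15, 4.79 above (SE 0.88, edgeR adjusted p = 0.12). DESeq2 called Myf5, Cdh15, Dmrt2 and Atp2a1, and over all genes it called 121 of 42241, against 9 of 21284 by edgeR. Without Tail Fuz KO 2, which leaves Fuz KO 1 alone in its group, Dmrt2 lay 4.20 and Cdh15 6.09 above the sum by edgeR. Without the Fuz KO 1 and DKO 1 libraries Dmrt2 lay 2.81 above it, so the size moved with the libraries kept. The 10 presomitic mesoderm genes lay on the other side of the sum, with a median of -2.71. At an unadjusted p under 0.05, 7 of them were lower, beside 2.96% of all genes. This test shares its WT and Gpr161 KO libraries with the comparisons above. In the Head 0 passed by edgeR (0.164% of all genes), 2, Meox1 and Lbx1, were under an unadjusted p of 0.05 (8.02% of all genes), and DESeq2 called Meox1 (log2 -1.51).

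The 2 Tail libraries of the Fuz KO differed from each other. All 10 genes were lower in Fuz KO 1 than in Fuz KO 2, by 1.35-fold for Meox1, 8.62-fold for Lbx1 and 60.1-fold for Myog. In Fuz KO 2, 7 genes were at or above the lower WT library. None of the 10 passed against Tail WT by edgeR or DESeq2, where 0.0094% of all genes did by edgeR. Myod1 alone (log2 -2.04, 95% interval -4.02 to -0.05) was under an unadjusted p of 0.05, beside 5.21% of all genes. Myf6, Myod1 and Lbx1, 3 of the 10, had both libraries below both WT libraries, as did 18% of all genes. Against Tail Fuz KO, 0 of the 10 passed in Tail DKO (0.0329% of all genes) and 0 were under an unadjusted p of 0.05 (3.69%), with 0 by DESeq2.

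The 2 Fuz KO libraries of the Tail also differed in the hypoxia and glycolysis genes, whose median on the log2 scale, relative to WT, was 2.43 in Fuz KO 1 and 0.09 in Fuz KO 2, with sums of 19970 and 7026 CPM. The median of the 10 genes was -2.33 and -0.21 in the same libraries. In the Tail DKO libraries the hypoxia medians were 1.85 and 0.39, and the 10 genes had -0.89 and -0.74. In Tail Gpr161 KO the hypoxia medians were 1.13 and 0.38, and the 10 genes had -3.89 and -3.28. The part of the hypoxia and glycolysis genes in the values of Fuz KO, Gpr161 KO or DKO was not tested. Without both Fuz KO 1 and both DKO 1 libraries, 7 of the 10 genes passed the test in Tail Gpr161 KO against WT, each lower. Calls over all genes went up as well, from 65 of 21284 to 348 of 22414. The presomitic mesoderm genes differed between the Fuz KO libraries too, with medians of 1.09 in Fuz KO 1 and 0.0028 in Fuz KO 2, against 0.64 to 1.42 in the Gpr161 KO libraries, -0.92 to -0.38 in those of DKO and -0.40 to 0.40 in those of WT.

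**Figure D4:**
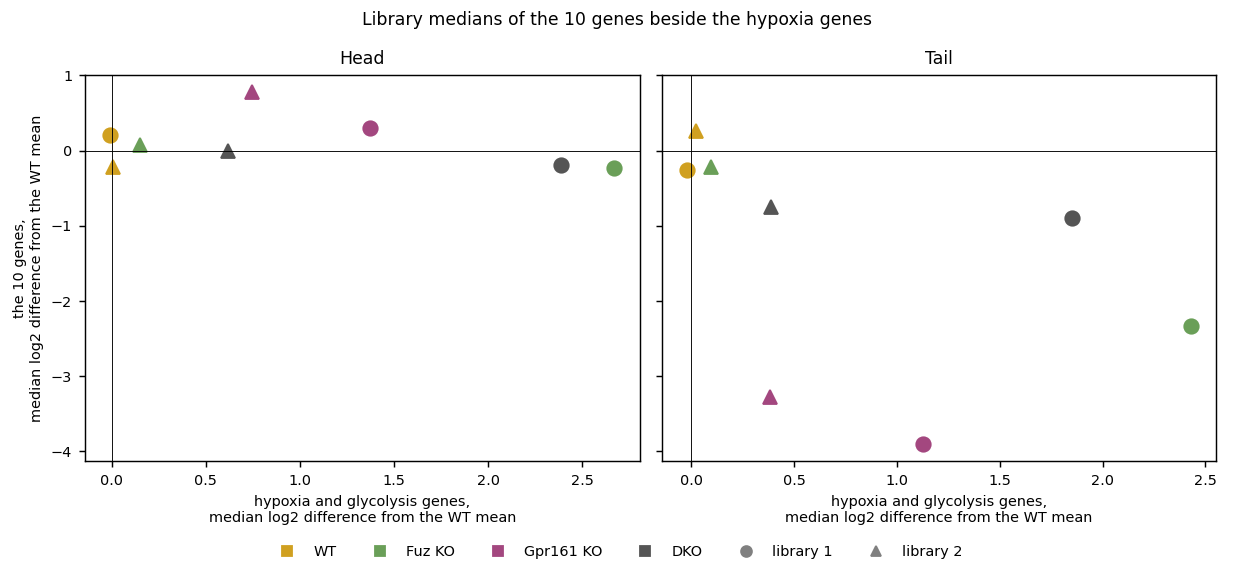
Median log2 difference, relative to WT of the same region, for the 17 hypoxia and glycolysis genes (horizontal) and for the 10 genes (vertical), 1 point per library, Head left and Tail right, colours for genotypes, circles for library 1 and triangles for library 2. In the Tail, Fuz KO 1 is at 2.43 and -2.33 and DKO 1 at 1.85 and -0.89. The Gpr161 KO libraries, which are lowest for the 10 genes, have hypoxia medians of 1.13 and 0.38.

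In the Head, where all 10 genes were under 5 CPM in every library, 2 of them rose in the Gpr161 KO. Dmrt2 was at 0.852 and 0.751 CPM in the WT libraries, 0.779 and 0.856 in those of Fuz KO, 2.69 and 3.75 in those of Gpr161 KO and 1.13 and 2.56 in those of DKO. It rose against WT by log2 2.00 (SE 0.44, edgeR adjusted p = 0.0352). Meox1 was at 1.35 and 0.939 CPM in the WT libraries, 2.18 and 2.05 in those of Fuz KO, 3.05 and 2.61 in those of Gpr161 KO and 1.46 and 2.18 in those of DKO, and rose by log2 1.30 (SE 0.29, edgeR adjusted p = 0.0384). These were 2 of the 10 where 1.51% of all genes rose. With Myf5 and Atp2a1, 4 genes had both Gpr161 KO libraries above both WT libraries, as did 28.4% of all genes. Neither rise passed without any 1 of the 4 libraries, with the Head alone or with sex as a term (adjusted p up to 0.396).

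Myf5 in the Head was at 1.35 and 0.986 CPM in the WT libraries, 0.467 and 0.0476 in those of Fuz KO, 4.36 and 4.56 in those of Gpr161 KO and 0.66 and 0.521 in those of DKO. The 4 groups did not overlap, in the order Gpr161 KO, WT, DKO and Fuz KO. Against Head Gpr161 KO it fell in Head DKO (log2 -2.91, SE 0.70, edgeR adjusted p = 0.0393), the 1 gene of the 10 that fell where 3.13% of all genes did, and this call was lost without any 1 of the 4 libraries. Its difference between Head Gpr161 KO and WT did not pass by edgeR (log2 1.93, adjusted p = 0.203), and it passed by DESeq2 (adjusted p = 0.0409).

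The remaining genes were sparse in the Head. Cdh15 ran from 0.892 to 2.51 CPM and Atp2a1 from 0.469 to 1.87 over the 8 libraries. Myog was at most 0.446 CPM, Myod1 at most 0.224 and Myf6 at most 0.188. Myf6 had 0 counts in both Head DKO libraries, which together allow up to 0.0354 CPM, and 2 and 8 counts in WT. No direction is drawn from these 3.

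None of the 10 passed against WT in Head Fuz KO (0.047% of all genes) or Head DKO (0.0329%), by edgeR or DESeq2. At an unadjusted p under 0.05 there were 2, Myf5 and Meox1, in Fuz KO (8.17% of all genes) and 3, Myf6, Dmrt2 and Meox1, in DKO (4.33%). Between Head DKO and Head Fuz KO 0 passed by edgeR (0.0282% of all genes) or DESeq2, and 1, Dmrt2, was under an unadjusted p of 0.05 (2.89%).

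Heart genes were higher in the same Head Gpr161 KO libraries. The 16 cardiomyocyte genes, of which 12 rose and 0 fell against Head WT, summed to 2013 and 712.8 CPM there and to 313 to 338 in Head WT, with Myh6, the atrial myosin, at 326.4 and 55.9 CPM against 0.471 and 0.329. Their part in the Dmrt2, Meox1 and Atp2a1 values of the Head was not tested. Of the skeletal muscle list 5 rose in Head Gpr161 KO and 0 fell, Des, Myom1, Tnni1, Tnnc1 and Klhl31, most of which heart muscle also expresses. Tnnc1 and Klhl31 were named after their values were seen. With haemoglobin and cardiomyocyte genes removed before scaling, Dmrt2 and Meox1 were still called. That removal acts only on the scaling and the genes tested. It cannot show whether tissue that carries heart genes has a part in these values.

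The difference between regions in the response to Gpr161 loss was tested as an interaction. The change of Dmrt2 was more negative in the Tail than in the Head (difference of log2 changes -5.65, SE 0.61, edgeR adjusted p = 0.00792), 1 of the 10 where 0.0752% of all genes were called in that direction. In that direction 7 of the 10 were at an unadjusted p under 0.05, beside 3.85% of all genes, and among them were Atp2a1 (log2 -5.39, SE 0.95, edgeR adjusted p = 0.0554), Cdh15 (-4.60, SE 0.89, 0.0763) and Myf5 (-4.51, SE 0.94, 0.11). For Lbx1 the estimate was -1.19 with a 95% interval of -6.46 to 4.08. Without Head WT 1, Head WT 2 or Tail Gpr161 KO 1, Dmrt2 did not pass (adjusted p up to 0.0615). Cardiomyocyte genes were higher in the Head Gpr161 KO libraries, and their part in these differences between regions was not tested. With the regions paired as above, 2 of the 10 passed, beside 217 of 21284 genes: Dmrt2 (log2 -5.64, edgeR adjusted p = 0.00192) and Myog (-4.39, edgeR adjusted p = 0.00588). In the Head the Myog estimate rests on 4 and 19 counts in the WT libraries and 10 and 4 in those of Gpr161 KO. For Fuz KO and DKO, 0 of the 10 and 0% of all genes passed this test by edgeR, DESeq2 called 0 of the 10, and Meox1 and Atp2a1 (2 genes, 2.12% of all genes) and Dmrt2, Meox1 and Atp2a1 (3 genes, 3.25%) were under an unadjusted p of 0.05.

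Genes whose Tail pattern was most like that of the 4 myogenic factors were ranked by Pearson's r between log2 CPM and the mean of the standardised log2 CPM of Myf5, Myf6, Myod1 and Myog over the 8 Tail libraries, among 10770 genes. The 8 points share depth and genotype, so r is a description. The first 6 were Mylpf (r = 0.986), a fast myosin light chain, Myh3 (0.985), embryonic myosin, Ttn (0.984), titin, Zic1 (0.982) and Zic4 (0.981), zinc finger factors of the dorsal neural tube and somite, and Vat1l (0.973). Myh3 was at 26.7 and 84.9 CPM in the WT libraries, 0.516 and 51.0 in those of Fuz KO, 0.19 and 0.413 in those of Gpr161 KO and 20.9 and 20.1 in those of DKO. Of the other members, r was 0.96 for Atp2a1, 0.95 for Lbx1, 0.932 for Cdh15, 0.904 for Meox2 and 0.871 for Dmrt2, and 0.044 for Meox1. Without Tail Fuz KO 1 and DKO 1, 1 of the 6 names remained among the first 6.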

How the data were processed

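Poly-A RNA was sequenced from 16 libraries, 2 for each of the 8 groups of region and genotype at E10.5, with groups taken from the labels. The deposited files hold raw counts per Ensembl gene. Per the submitters' processing notes, reads were handled on the build GRCm39 with STAR 2.7.1a, Trimmomatic, FastQC, featureCounts 1.6.0, HTSeq, StringTie 2.0.4 and Picard 2.20.4. Which of these counted, and with what strand setting, is not given in the sources used here. Reads shared by overlapping or antisense genes could therefore not be separated.

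Of 54838 identifiers, 54723 were given a symbol from GENCODE M21, which also gave exon lengths. edgeR 4.0.16 in R 4.3.3 was fitted once over all libraries, with TMM scaling, filterByExpr, a coefficient per group and robust quasi-likelihood F-tests for 16 comparisons. It left 8 residual degrees of freedom, and its common BCV (biological coefficient of variation) was 0.257. P-values were adjusted by Benjamini-Hochberg over 21284 genes and called below 0.05, and the SE is the log2 change divided by the root of F. Intervals are at 95%, and the limit set by a count of 0 is 3 counts, which covers counting error only. On simulated data for Tail Gpr161 KO against Tail WT (21284 genes, 50 changed per size) the test recovered 30%, 64%, 80% and 78% of changes of 1, 2, 3 and 4 on the log2 scale, with 8 false calls. The simulated counts were drawn independently around 1 mean per gene, with the changed genes picked at random. They held no shift shared by many genes of a library, as for hypoxia or sex, so these rates need not hold for the real libraries.

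The 10 genes and the 10 gene lists (138 symbols) were chosen with earlier results of these data known. Text names come from a rule: the 10 genes, both targeted genes, up to 3 called genes per list, direction and comparison of a mutant with WT or of the regions, and the 6 genes most alike in pattern. Differences between libraries 1 and 2 correlated across genes at 0.383 to 0.719 between Head and Tail of each of the 4 genotypes, and sex by Xist matched by number. Comparisons between regions were therefore also fitted with Head and Tail libraries of 1 genotype and number as a pair. This pairing comes from the data, not the labels. Alternatives were RLE scaling, no filter, a filter of 5 CPM in 2 libraries, each region alone, a block for the replicate number, sex as a term, removal of libraries or of haemoglobin and cardiomyocyte genes, and DESeq2 1.42.0. Figures were drawn with matplotlib 3.10.9. Some genes of the lists are counted but not reported here by name.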

Additional observations from a re-analysis of the deposited data

Results flagged for a closer look

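The response of Dmrt2 to Gpr161 loss differed between the regions by a test of the difference itself. The log2 change from WT was 2.00 in the Head and -3.65 in the Tail, a difference of -5.65 (SE 0.61, edgeR quasi-likelihood adjusted p = 0.00792). Both Head Gpr161 KO libraries lay above both Head WT libraries, as in 28.4% of all genes. Both Tail Gpr161 KO libraries lay below both Tail WT libraries, as in 22%. These are the same values that the test used. Cardiomyocyte genes were higher in the same Head Gpr161 KO libraries, and their part in the Dmrt2 difference was not tested. The call held in 14 of 17 alternatives, in which the difference ran from -5.85 to -5.36. It was lost without Head WT 1, Head WT 2 or Tail Gpr161 KO 1, with adjusted p up to 0.0615. In the Head the gene was at 0.751 to 3.75 CPM over all libraries and in the Tail at 3.01 to 45.9 CPM.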

How the results depend on the processing

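Of 160 gene comparisons 16 were called, and among 2219 values under the alternatives 0 of the called values changed direction. There were 53 losses and 97 gains of a call, and 106 sign changes among values called neither way. With 2 libraries a group, calls mostly failed without 1 of them: called genes then numbered 0 to 0 of 10 in Head Gpr161 KO, 0 to 3 in Tail Gpr161 KO, 3 to 7 in Head WT against Tail WT, 0 to 0 in either DKO against Gpr161 KO, 0 to 1 for the Gpr161 KO effect between regions and 0 to 5 for Tail additivity. In Tail Gpr161 KO the count was 0 without either Gpr161 KO library and 1 without Tail WT 2. At 3 counts, a library's limit is about 0.07 CPM, so Myf6, Myod1 and Myog in the Head carry little information.

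Without a filter on low counts, the called genes rose from 0 to 2 in Head Fuz KO, 2 to 4 in Head Gpr161 KO, 0 to 2 in Head DKO, 3 to 8 in Tail Gpr161 KO and 0 to 1 in Tail DKO, all against WT, from 1 to 4 in Head DKO and 2 to 8 in Tail DKO against Gpr161 KO, from 1 to 7 and 0 to 1 for the Gpr161 KO and DKO effects between regions, and from 0 to 2 in Head and 7 in Tail additivity. By DESeq2 they were 4 in Head and 7 in Tail Gpr161 KO, 2 in Head and 6 in Tail DKO against Gpr161 KO, 4 for the Gpr161 KO effect between regions, 1 for Head and 4 for Tail additivity. Without both Fuz KO 1 and both DKO 1 libraries they were 4, 7, 2, 7 and 4 in the same order, and 1 for Tail additivity. With each region alone they were 0, 1, 0 and 1 for the first 4 of these, where the Head fit tested 8 of the 10 genes. With sex as a term they were 0 in Head and 1 in Tail Gpr161 KO and 0 in Head DKO against Gpr161 KO. Without the filter, calls over all genes were more numerous too. They went from 10, 429, 7, 65 and 9 of 21284 to 780, 1319, 432, 802 and 481 of 42241 in the 5 comparisons with WT named first. In Head and Tail Gpr161 KO they were 968 and 320 of 42241 by DESeq2 and 2211 and 348 of 22414 without the Fuz KO 1 and DKO 1 libraries. With each region alone they were fewer in Head and Tail Gpr161 KO, 258 of 19996 and 33 of 19603. With sex as a term they were 196 and 29 of 21284, also fewer. The cause of these changes was not tested.

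Between genotypes the replicate numbers are only shared numbers, since differences between libraries 1 and 2 correlated at -0.156 to 0.554 outside the pairs of regions of 1 genotype. With a replicate block by number the called genes were 5 in Tail Gpr161 KO, 2 in Head DKO against Gpr161 KO, 2 for the Gpr161 KO effect between regions and 1 for Tail additivity. That block moved no other count of called genes by over 1.5 times. Calls over all genes went up with it as well, from 65 to 122 of 21284 in Tail Gpr161 KO and from 429 to 659 in Head Gpr161 KO. With the pairing of regions, a block by genotype and number, the counts were 9 for Head WT against Tail WT and 2 for the Gpr161 KO effect between regions. Among the 10 genes it added the calls of Myog, Myod1 and Lbx1 and ended that of Myf5 in the first, added that of Myog in the second, and changed no other call between regions.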

Other observations

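Neighbouring mesoderm was described by 4 lists. In Tail Gpr161 KO against WT, 0 of 10 presomitic mesoderm genes rose and 0 fell by edgeR. At an unadjusted p under 0.05, 3 were higher and 0 lower, and the median log2 change was 1.11. Of 10 sclerotome and tendon precursor genes 0 were called, 3 were higher and 1 lower at the unadjusted threshold, and the median was 0.48. Of all genes, 3.01% were higher and 3.97% lower at that threshold. In Tail DKO against Tail Gpr161 KO, Col2a1, a cartilage collagen (log2 -1.01, edgeR adjusted p = 0.0385), and Foxc1, a factor of paraxial mesoderm (log2 -0.98, edgeR adjusted p = 0.0379), fell, 2 of the 10, named after their values were seen. Of 7 branchial arch muscle precursor genes 0 were called in Tail Gpr161 KO.

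In Head Gpr161 KO against WT, 2 of the 7 branchial arch genes rose and 0 fell: Tbx1, a factor of pharyngeal mesoderm (log2 2.36, SE 0.53, edgeR adjusted p = 0.0482), and Tcf21, a factor of branchiomeric muscle precursors that is also made in heart and body wall mesoderm (log2 2.27, SE 0.51, edgeR adjusted p = 0.0405). Cardiomyocyte genes were higher in the same libraries, and their part was not tested. Of the 18 somite and myogenic regulators 4 rose there, among them Igfbp5 (log2 1.59), Sim1 (1.47) and Mef2c (1.08). Pax3 (log2 -2.62, edgeR adjusted p = 5.92e-06) and Pax7 (log2 -3.26, edgeR adjusted p = 0.000628) fell. Of 10 limb bud mesenchyme genes 3 fell and 0 rose, Msx1 (log2 -1.96), Tbx4 (-1.75) and Prrx1 (-1.62), with edgeR adjusted p of 0.00251 to 0.0294.

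Between Head WT and Tail WT, 4 of the 18 regulators were lower in the Head and 1, Eya1 (log2 0.75, edgeR adjusted p = 0.0161), was higher. The 3 with the smallest adjusted p among the lower genes were Tcf15, the factor of epithelial somites (log2 -3.76), Met, the receptor of migrating muscle precursors (-2.19), and Fgfr4 (-3.05). Of the 31 skeletal muscle genes tested 5 were lower and 0 higher, among them Des (log2 -2.38) and Tnni1 (-5.10).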
